A study of Mus musculus with 11 samples.

Results

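The respiratory chain genes described here encode the subunits of the 5 enzyme complexes of the inner mitochondrial membrane. They were picked from a table of 12932 mouse genes by gene symbol alone, without regard to expression: names beginning with Nduf (families a, b, c, s and v), Sdh (a to d), Uqcr, Cox4 to Cox8, Atp5, and the mitochondrially encoded mt-Nd, mt-Co, mt-Atp and mt-Cytb genes. This gave 94 genes, of which 81 are nuclear and 13 are carried on mitochondrial DNA. All 94 passed the filter on low values (at least 1 CPM, reads scaled to the size of the library, in 3 libraries). By symbol, complex I holds 45 of them, complex II 4, complex III 9, complex IV 17 and complex V 19. Ndufa4 was counted with complex I by its name, although its protein is now assigned to complex IV. Cox7a2l was likewise counted with complex IV by its name alone.

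RNA was sequenced from sorted alveolar macrophages (AMs), the resident phagocytes of the airspace, in 11 libraries. Control mature AMs (mAM_WT, 4 libraries) came from CD11cCre- Rxrabfl/fl mice, which carry the floxed Rxra and Rxrb alleles without Cre. RXR-deficient mature AMs (mAM_KO, 4 libraries) and RXR-deficient immature AMs (Imm_KO, 3 libraries) came from CD11cCre+ Rxrabfl/fl mice. Per the study's methods the mice were 9 weeks old on a C57BL/6J background, mature cells were CD11b- SiglecF+ and immature cells CD11b+ SiglecF+, and Cre was driven by the Cd11c promoter, which is also active in other myeloid cells. There were no immature control cells, so Imm_KO differed from mAM_WT in both genotype and stage. The series describes the libraries as individual biological replicates. It gives the cells as sorted from digested lung, and the methods as sorted from lavage.

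Electrons from NADH enter at complex I and those from succinate at complex II. They pass by coenzyme Q to complex III and by cytochrome c to complex IV, which reduces oxygen, and the proton gradient built on the way drives ATP synthesis at complex V. Complexes I, III, IV and V combine nuclear subunits, imported from the cytosol, with subunits made inside the mitochondrion, whereas complex II is wholly nuclear. Alveolar macrophages live in a lipid-rich, oxygen-rich niche and are known for a high reliance on fatty acid oxidation, which feeds this chain.

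Reads that cannot be placed uniquely bear on several of these genes, so their sequences come first. The mouse nuclear genome holds a copy of part of the mitochondrial genome on chromosome 1, and the table lists several pseudogenes within it beside the genes they copy. Reads were 60 bases long and assigned by RSEM, which shares a read among all transcripts that match it. The first 60 bases of mt-Nd3 (GRCm38, chrM:9459-9518, plus strand) and of its copy Gm28438 (chr1:24613060-24613119, minus strand) are shown with the base that differs in capitals. It is T3C, counted from the first base of the window, mt-Nd3 first.
mt-Nd3: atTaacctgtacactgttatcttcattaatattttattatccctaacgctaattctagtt
Gm28438: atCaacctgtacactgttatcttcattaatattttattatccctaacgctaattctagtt
The first 60 bases of mt-Co3 (chrM:8607-8666, plus strand) and of Gm28437 (chr1:24613912-24613971, minus strand) carry no difference, and over the 783 bases compared the count of differences was 0.
mt-Co3 and Gm28437: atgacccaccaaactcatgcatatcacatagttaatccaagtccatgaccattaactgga
The same held for mt-Co2 with Gm28661 (0 differences in 681 bases), mt-Atp6 with Gm10925 (0 in 678), mt-Nd4l with Gm10222 (0 in 294) and mt-Nd4 with Gm28439 (0 in 876), and mt-Nd3 differed from its copy at 1 of 345 bases. Such reads cannot be told apart by source, so the values of these genes are given alone and summed with their copies. Among nuclear members, the c-ring gene Atp5g2 shared 36.4% of its 60-base windows with the chromosome 7 pseudogene Gm10175, and every window of Ndufb4c was also found in Ndufb4. A copy was counted where it shared at least 20% of a member's windows. Of the 7 mt- genes with a copy, mt-Co1 was the least affected. It shared 28.3% of its windows with Gm29216 and 22.0% with a further copy, Gm13340 on chromosome 2, which differed at 37 of 1545 bases.

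The libraries held between 16659960 and 37873532 reads. The floxed genes did not check the labels, since a count over the whole gene includes exons outside any deletion: Rxra lay at 310 to 380 CPM in mAM_WT, 334 to 419 in mAM_KO and from 283 to 305 in Imm_KO, and Rxrb at 51.4 to 72.1, 39.3 to 55.3 and 31.9 to 35.2. The 13 alveolar macrophage markers were all listed, with a summed level of 22889 to 29219 CPM in mAM_WT, 27497 to 33336 in mAM_KO without replicate 4, and 25245 to 27022 in Imm_KO. By gene, however, 9 of the 13 fell and 2 rose in Imm_KO against mAM_WT. In Imm_KO, the summed levels of several other marker lists differed from mAM_WT. The 6 monocyte genes listed of 8 summed to 207 to 216 CPM against 14.6 to 22.4 in mAM_WT, the 6 interstitial macrophage genes of 8 to 291 to 315 against 1.21 to 2.33, and the 5 neutrophil genes of 7 to 869 to 940 against 28.9 to 39.6, while Ly6c2, Plac8, Lyve1, Folr2, Ly6g and Camp were not listed. The endothelial list (1 of 6 genes listed, Pecam1 and Cdh5 not among them) was at 300 to 332 CPM against 118 to 145 and the club and ciliated cell list (2 of 6) at 258 to 266 against 110 to 176, while the dissociation stress list (11 of 11) was at 530 to 571, within the 443 to 580 of mAM_WT. The 14 cell cycle genes summed to 206 to 224 CPM against 740 to 916. The dendritic cell genes (2 of 7 listed) were at 20.7 to 24.1 CPM against 5.40 to 7.24 and the eosinophil gene (1 of 5) at 90.8 to 99.7 against 23.4 to 30.9. In mAM_KO the neutrophil list reached 83.1 to 314 CPM, the interstitial macrophage list 3.65 to 11.9 and the cell cycle list 606 to 749. No T cell, NK cell or fibroblast marker was listed. The part of these differences in the results on respiratory chain genes was not tested. In bulk RNA, fewer cells of a type and less RNA per cell cannot be told apart.

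mAM_KO replicate 4 stood apart from the other mAM_KO libraries in these very genes. It was above all 3 of them in 72 of 81 nuclear members (88.9%, against 31.0% of 12876 genes with a known transcript length) and below all 3 in 11 of 13 mt- members (84.6%, against 30.7%). The median nuclear member was 0.41 higher on the log2 scale and the median mt- member 0.60 lower. mAM_WT replicate 4 leaned the same way, with medians of 0.15 for the nuclear and -0.44 for the mt- members relative to mAM_WT replicates 1 to 3. Following the study, which used 3 mAM_KO mice, replicate 4 was left out of the group means and tests below, and counts and medians with it, or its own values, are given beside the results that rest on mAM_KO.

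Summed over all members, nuclear and mitochondrially encoded transcripts differed in opposite directions across the groups. The 81 nuclear genes together made up 5891, 6554, 6339 and 6611 CPM in mAM_WT, 5688, 5880 and 5512 in mAM_KO and 5224, 5245 and 5354 in Imm_KO. The Imm_KO libraries were below every mAM library. Their mean of 5274 ± 69.9 CPM (SD, n = 3) was 16.9% below the 6349 ± 327 (n = 4) of mAM_WT, and mAM_KO lay between them at 5693 ± 184 (n = 3). The 13 mt- genes together made up 24476, 20437, 22284 and 15534 CPM in mAM_WT, 27738, 26394 and 29628 in mAM_KO and 33958, 29485 and 35307 in Imm_KO. Their mean was 20683 ± 3809 in mAM_WT, 27920 ± 1625 in mAM_KO and 32917 ± 3048 in Imm_KO, although the ranges of mAM_KO and Imm_KO overlapped at 29628 and 29485 CPM. The ratio of the mt- to the nuclear sum was 2.35 to 4.15 in mAM_WT, 4.49 to 5.37 in mAM_KO and from 5.62 to 6.59 in Imm_KO, with no overlap between groups. mAM_KO replicate 4 had a nuclear sum of 7257 CPM, above all controls, and an mt- sum of 17781 CPM and a ratio of 2.45, both within the range of the controls. Counting the copies as mitochondrial changed little: the ratio was then 2.97 to 5.03, 5.08 to 6.34 and 6.77 to 8.13, and 2.97 in mAM_KO replicate 4. No test was made on these sums.

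**Figure D1:**
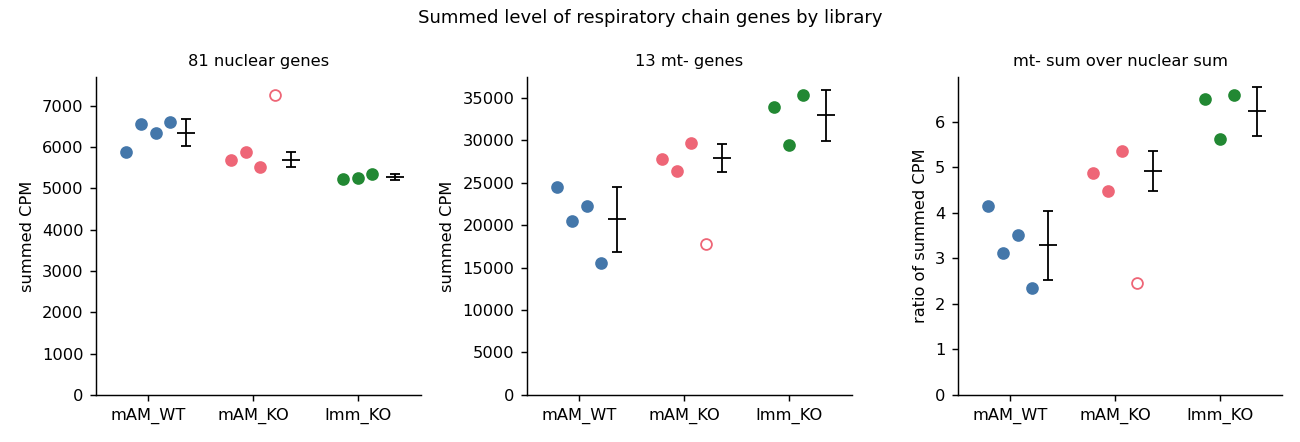
Summed CPM of the 81 nuclear and of the 13 mt- respiratory chain genes and their ratio, by library (points) and group, with mean and SD as bars. The open point is mAM_KO replicate 4, outside the mean; the ratio is 2.35 to 4.15 in mAM_WT and 5.62 to 6.59 in Imm_KO.

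On the nuclear side the sum of each complex had a lower mean in Imm_KO than in mAM_WT. The ratio of group means was 0.852 for nuclear complex I, 0.814 for complex II, 0.805 for complex III, 0.923 for complex IV and 0.785 for complex V. On the mitochondrial side, with copies not counted, it was 1.59 for complex I, 2.05 for complex III (mt-Cytb alone), 1.503 for complex IV and 1.48 for complex V. The libraries of mAM_WT and Imm_KO overlapped in nuclear complex IV, at 1014 to 1259 and 1034 to 1078 CPM. They also overlapped in mitochondrial complex V, at 602 to 2700 and 2096 to 2986 CPM, and in no other of these sums. Per kilobase of transcript, the mean level in mAM_WT had a median of 969 CPM for the mt- and 62.6 for the nuclear members. Atp5b, the catalytic beta subunit of ATP synthase, was the highest nuclear member at 370 CPM per kilobase, followed by Cox4i1 at 346, and mt-Co1 the highest of all at 4806. The lowest were Cox7a1 and Cox6a2, the heart and muscle forms of complex IV subunits, at 2.99 and 0.933.

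Between RXR-deficient and control mature AMs, few respiratory chain genes changed. By limma, with Benjamini-Hochberg adjustment over all 12889 genes tested, 3 of 94 members passed an adjusted p of 0.05 in mAM_KO against mAM_WT (3.19%), where 4.84% of all genes did (2.25% higher and 2.59% lower). All 3 fell, and all are nuclear: Atp5d, Atp5g3 and Uqcrc1. Of the mt- genes, 0 of 13 passed, although 10 of 13 had an unadjusted p below the threshold, as did 28 of 81 nuclear genes. The share of all genes with such an unadjusted p was not counted, so these counts have no background beside them. edgeR called 0 mt- genes as well and DESeq2 called 6 higher. The median log2 fold change was -0.16 for the nuclear and 0.38 for the mt- genes, against 0.00 for all genes tested. Of all members, 69 of 81 nuclear members had a negative and 12 of 13 mt- members a positive value.

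Atp5d, the delta subunit in the central stalk of ATP synthase (chr10:80138632-80145818), was at 83.2, 107, 97.8 and 113 CPM in mAM_WT and 72.0, 68.8 and 74.9 in mAM_KO. The groups did not overlap. The gene fell by 0.47 ± 0.10 (SE) on the log2 scale (limma adjusted p = 0.0187), and Imm_KO lay between them at 85.0, 89.4 and 82.5 CPM. Atp5g3, which makes the same c-ring protein as Atp5g1 and Atp5g2 (chr2:73908447-73911326), was at 151, 175, 167 and 174 CPM in mAM_WT, 131, 143 and 122 in mAM_KO and 88.3, 79.6 and 93.5 in Imm_KO. It fell by 0.34 ± 0.08 in mAM_KO (limma adjusted p = 0.0381). Uqcrc1, a core protein of complex III (chr9:108936633-108949623), was at 150, 165, 160 and 164 CPM in mAM_WT, 134, 130 and 129 in mAM_KO and 104, 122 and 106 in Imm_KO. It fell by 0.29 ± 0.07 in mAM_KO (limma adjusted p = 0.0385). mAM_KO replicate 4 lay within the range of the controls for Atp5d, at 110 CPM, and above it for Atp5g3 and Uqcrc1, at 187 and 169. With it included, 0 of 94 members passed in limma, where 337 of 12932 genes did. An unadjusted p below the threshold was found for 5 members, also without a count over all genes. The medians shrank to -0.06 for the nuclear and 0.26 for the mt- genes.

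These calls rested on single libraries. Leaving out mAM_KO replicate 1, mAM_KO replicate 3 or mAM_WT replicate 2 left 0 calls, leaving out mAM_WT replicate 3, mAM_WT replicate 4 or Imm_KO replicate 2 left 1, and leaving out mAM_KO replicate 2 or mAM_WT replicate 1 gave 10 and 16. None of the 3 genes passed in every such fit. The split of the calls also moved with the scaling: without a TMM factor, or with library sizes that leave out mt- reads, 3 nuclear members fell and 3 mt- members rose, and after quantile normalization 2 fell and 4 rose. The medians were negative for nuclear and positive for mt- genes in all of these settings.

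In immature RXR-deficient AMs, many members changed, nuclear ones mostly downwards and mitochondrial ones upwards. In Imm_KO against mAM_WT, 47 of 94 members passed the test (50.0%), which is near the 48.1% of all genes tested (22.8% higher and 25.3% lower). Of the 81 nuclear members, 34 fell (42.0%) and 4 rose (4.94%). Of the 13 mt- members, 9 rose (69.2%) and 4 did not pass. The median log2 fold change was -0.21 for the nuclear and 0.80 for the mt- genes, against 0.00 for all genes. With mAM_KO replicate 4 in the fit, 36 of 94 passed (23 nuclear lower, 4 nuclear higher, 9 mt- higher), where 5887 of all 12932 genes did. Leaving out 1 library gave 31 to 53. The 31 came without Imm_KO replicate 2, where 5027 of 12607 genes passed. The 53 came without mAM_WT replicate 1, where 5908 of 12831 genes passed. Of the calls, 21 of the 38 nuclear and 7 of the 9 mt- ones held in every such fit. Without all libraries numbered 4, an alternative chosen after seeing the data, 32 passed (22 nuclear lower, 2 higher and 8 mt- higher). Over all genes 5406 of 12515 passed in that fit.

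**Figure D2:**
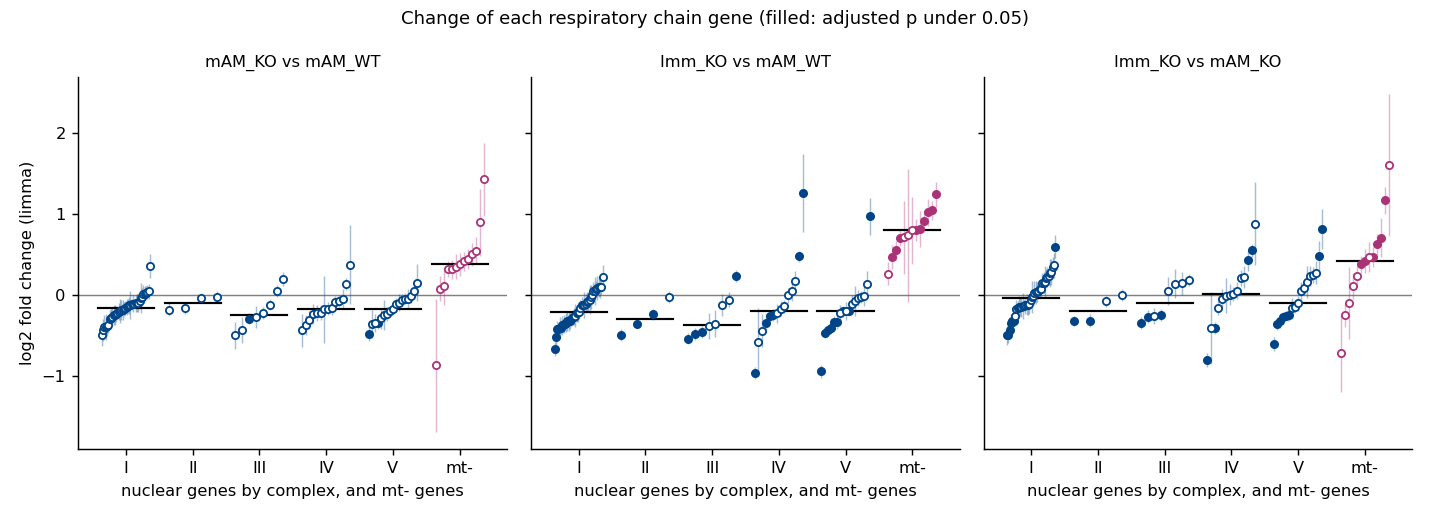
The log2 fold change of each of the 94 genes in the 3 comparisons, with SE bars, by complex for nuclear genes and together for the 13 mt- genes; filled points have an adjusted p under 0.05 and horizontal bars mark medians. In Imm_KO against mAM_WT the nuclear points lie mostly below 0, with 34 filled, and the mt- points above 0, with 9 filled.

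In complex I, 16 of 38 nuclear members fell in Imm_KO against mAM_WT (42.1%, against 25.3% of all genes) and 22 did not pass, with a median of -0.21. Of the 7 nuclear core subunits, which hold the flavin and iron-sulphur clusters and the quinone site, 5 fell (71.4%), among them Ndufs1, Ndufs8 and Ndufv1. Ndufv1, which carries the flavin that accepts electrons from NADH, was at 84.6, 87.8, 93.6 and 88.1 CPM in mAM_WT, 78.0, 77.3 and 72.8 in mAM_KO and 70.0, 69.4 and 69.1 in Imm_KO. It fell by 0.35 ± 0.06 in Imm_KO against mAM_WT (limma adjusted p = 0.000585), with no overlap between Imm_KO and either mature group. Ndufs7, another core subunit, was at 31.2 to 51.8 CPM in mAM_WT and 35.0 to 43.8 in Imm_KO and did not pass. Of the other 31 nuclear subunits 11 fell (35.5%). The largest fall was that of Ndufa9, which sits near the quinone site (chr6:126821721-126849136): 61.8, 68.3, 74.8 and 59.1 CPM in mAM_WT, 59.7, 59.5 and 56.0 in mAM_KO and 43.7, 41.2 and 39.6 in Imm_KO. Its change was -0.67 ± 0.09 (limma adjusted p = 3.91e-05). Ndufs4, an accessory subunit whose loss in mice and humans impairs complex I, was next, at 29.5, 30.4, 30.2 and 29.5 CPM in mAM_WT, 33.0, 28.5 and 27.2 in mAM_KO and 23.8, 18.2 and 21.2 in Imm_KO. It fell by 0.52 ± 0.11 (limma adjusted p = 0.00145). Ndufa4 went from a mean of 69.1 ± 7.74 CPM (n = 4) in mAM_WT to 55.4 ± 4.78 (n = 3) in Imm_KO (log2 -0.31, limma adjusted p = 0.0176).

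Complex II, succinate dehydrogenase, also serves the TCA cycle. Of its 4 genes 3 fell in Imm_KO against mAM_WT (75.0%, against 25.3% of all genes). Sdha, the flavoprotein, was at 301, 307, 313 and 297 CPM in mAM_WT, 308, 303 and 284 in mAM_KO and 232, 244 and 240 in Imm_KO, a change of -0.35 ± 0.06 (limma adjusted p = 0.000203) that set Imm_KO apart from both mature groups. Sdhc, a membrane anchor, had means of 87.5 ± 4.11 CPM in mAM_WT, 77.5 ± 7.35 in mAM_KO and 62.3 ± 1.56 in Imm_KO, and fell by 0.49 ± 0.08 (limma adjusted p = 0.000166). Sdhb, the iron-sulphur protein, went from 78.6 ± 4.30 to 66.7 ± 1.29 CPM (log2 -0.24, limma adjusted p = 0.0102). Sdhd, the other anchor, was at 87.9, 93.6, 94.3 and 87.2 CPM in mAM_WT and 87.4, 88.7 and 92.0 in Imm_KO, a difference of -0.02 ± 0.07 that did not pass.

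In complex III, the core proteins Uqcrc1 and Uqcrc2 and the Rieske iron-sulphur protein Uqcrfs1 all fell in Imm_KO, by 0.54, 0.46 and 0.48 on the log2 scale. These were 3 of 8 nuclear members (37.5%, against 25.3% of all genes). Uqcrfs1 was at 81.7, 86.5, 85.2 and 83.7 CPM in mAM_WT, 67.6, 74.4 and 75.8 in mAM_KO and 59.1, 57.5 and 64.9 in Imm_KO (limma adjusted p = 0.000107). Of the 5 small nuclear subunits 4 did not pass, and Uqcrh, the hinge protein, rose from 61.8, 63.2, 63.1 and 65.4 CPM in mAM_WT to 71.7, 71.5 and 81.2 in Imm_KO, by 0.24 ± 0.07 (limma adjusted p = 0.0151). The heme-bearing partners outside the symbol rule, Cyc1 and cytochrome c (Cycs), changed by -0.41 ± 0.09 and -0.35 ± 0.11 (limma adjusted p = 0.00228 and 0.0212).

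Complex IV, cytochrome c oxidase, taken by symbol, held the largest fall of a nuclear member in Imm_KO against mAM_WT. Of the 14 nuclear members so grouped, 4 fell (28.6%, against 25.3% of all genes) and 2 rose (14.3%, against 22.8%). Cox5a, a subunit on the matrix side of the enzyme (chr9:57521274-57532426), was at 115, 133, 122 and 128 CPM in mAM_WT, 111, 119 and 104 in mAM_KO and 60.2, 63.1 and 68.6 in Imm_KO. Imm_KO was thus well below every mature library. The gene fell by 0.96 ± 0.08 (limma adjusted p = 3.68e-07), to 0.513 of its level in mAM_WT. Cox7a2l (chr17:83501918-83517330) went the other way: 149, 161, 167 and 162 CPM in mAM_WT, 138, 161 and 156 in mAM_KO and 221, 210 and 238 in Imm_KO. It rose by 0.48 ± 0.07 (limma adjusted p = 0.000144). Its relative Cox7a2 was at 41.3 to 51.8 CPM in mAM_WT and 43.3 to 47.8 in Imm_KO and did not pass, and Cox7a1, at 1.07 to 1.56 and 0.765 to 1.08, did not either. Among the other paired forms, Cox6a1 went from 87.8 ± 13.6 to 68.5 ± 2.57 CPM (log2 -0.34, limma adjusted p = 0.0206) and Cox6b1 from 106 ± 7.80 to 89.7 ± 2.83 (log2 -0.24, limma adjusted p = 0.0189). Cox6a2 had a nominal rise of 1.26 ± 0.48 (limma adjusted p = 0.0462), at 0.462 to 0.769 CPM in mAM_WT and 1.23 to 1.70 in Imm_KO, a level near the filter, and mAM_KO replicate 1 alone reached 1.59. Cox4i1, Cox6b2 and Cox8a did not pass in this comparison, with log2 values of -0.17, -0.44 and 0.06.

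In complex V, ATP synthase, 8 of 17 nuclear members fell (47.1%, against 25.3% of all genes) and 1 rose (5.88%, against 22.8%) in Imm_KO. The catalytic head subunits Atp5a1 and Atp5b fell by 0.46 ± 0.06 and 0.42 ± 0.05 (limma adjusted p = 2.45e-05 and 3.04e-05). Atp5b, the most abundant nuclear member per kilobase, was at 689, 723, 727 and 700 CPM in mAM_WT, 627, 650 and 614 in mAM_KO and 535, 529 and 522 in Imm_KO, so that the groups did not overlap, apart from mAM_KO replicate 4 at 772. Of the 3 genes that encode the identical c-ring protein, Atp5g3 fell by 0.94 ± 0.08 (limma adjusted p = 8.56e-07) and Atp5g1 by 0.33 ± 0.08 (limma adjusted p = 0.00589). Atp5g2 was counted as higher, by 0.97 ± 0.23 (limma adjusted p = 0.00364), at 10.4, 10.7, 7.75 and 11.3 CPM in mAM_WT and 29.4, 17.9 and 14.0 in Imm_KO. Summed with Gm10175 it was at 80.6, 94.1, 74.1 and 106 CPM in mAM_WT and 88.8, 110 and 91.8 in Imm_KO, and the difference was 0.14 ± 0.12 and did not pass (limma adjusted p = 0.347).

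**Figure D3:**
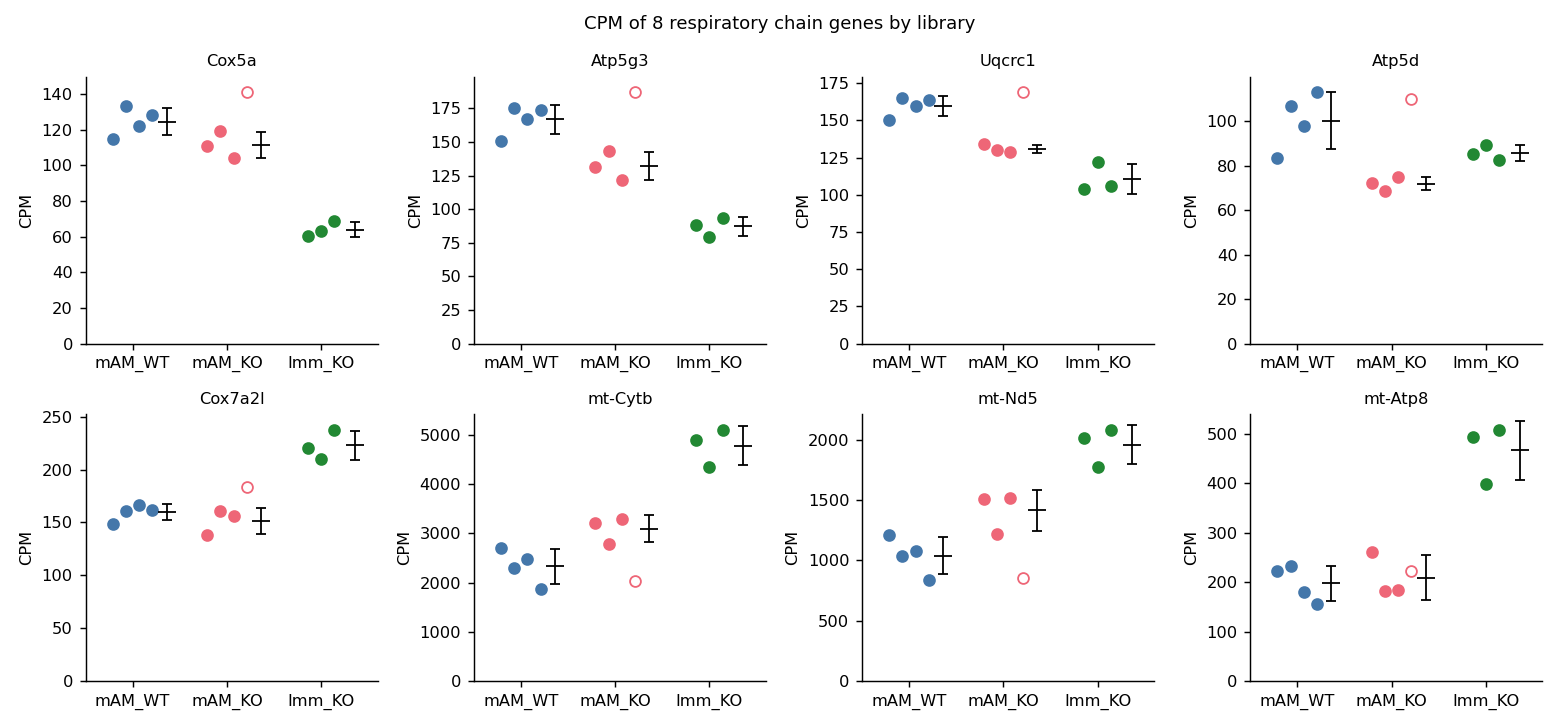
CPM of Cox5a, Atp5g3, Uqcrc1, Atp5d, Cox7a2l, mt-Cytb, mt-Nd5 and mt-Atp8 in each library (points), with group mean and SD; the open point is mAM_KO replicate 4. Cox5a lies at 60.2 to 68.6 CPM in Imm_KO and at 104 or above in the mature libraries, and mt-Cytb at 4340 to 5109 CPM in Imm_KO and at 3287 or below elsewhere.

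The mitochondrially encoded genes are transcribed from both strands of the circular genome as long precursors and then released. In Imm_KO against mAM_WT the 13 log2 values ran from 0.27 (mt-Nd2) to 1.25 (mt-Atp8), all positive. mt-Cytb, the cytochrome b of complex III, was at 2705, 2286, 2468 and 1863 CPM in mAM_WT, 3217, 2786 and 3287 in mAM_KO and 4906, 4340 and 5109 in Imm_KO. It rose by 1.05 ± 0.12 (limma adjusted p = 9.56e-06), with the 3 groups in separate ranges once mAM_KO replicate 4, at 2035 CPM, was set aside. mt-Nd5 of complex I was at 1206, 1036, 1079 and 835 CPM in mAM_WT, 1506, 1214 and 1519 in mAM_KO and 2014, 1775 and 2083 in Imm_KO, a rise of 0.92 ± 0.12 (limma adjusted p = 3.33e-05). mt-Nd6, the protein-coding gene on the opposite strand, rose by 1.02 ± 0.17 (limma adjusted p = 0.00027), from 364, 278, 351 and 222 CPM to 633, 485 and 720. Whether strand was used in counting is not given in the sources used here, and mt-Nd5 ends opposite the end of mt-Nd6.

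mt-Atp8, which overlaps mt-Atp6 at its end, was at 222, 232, 181 and 156 CPM in mAM_WT, 261, 182 and 185 in mAM_KO and 493, 399 and 509 in Imm_KO, a rise of 1.25 ± 0.15 (limma adjusted p = 2.18e-05). The mature groups overlapped and Imm_KO lay above both. mt-Co1, the catalytic core of complex IV, and mt-Co2, which takes electrons from cytochrome c, rose by 0.56 ± 0.12 and 0.70 ± 0.10 (limma adjusted p = 0.00167 and 6.95e-05). mt-Nd1, mt-Nd4 and mt-Nd4l rose by 0.47, 0.81 and 0.82. Summed with their copies, mt-Co1, mt-Co2, mt-Nd4 and mt-Nd4l rose by 0.56, 0.66, 0.81 and 0.97. mt-Nd2 was at 1193, 957, 1042 and 740 CPM in mAM_WT, 1510, 1214 and 1421 in mAM_KO and 1201, 1029 and 1283 in Imm_KO, so its highest group was mAM_KO, and neither comparison with the controls passed (limma adjusted p = 0.132 for Imm_KO and 0.0562 for mAM_KO). The ribosomal RNAs of the same genome did not share the order of the coding genes. Summed over mt-Rnr1 and mt-Rnr2 they were at 423 to 598 CPM in mAM_WT, 677 to 730 in mAM_KO and from 467 to 625 in Imm_KO. mAM_KO replicate 4, outside that mAM_KO range, was at 558 CPM, within the range of the controls. The labels give the sequenced molecule as polyA RNA, and the tails of these transcripts were not measured.

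Counted alone, mt-Co3, mt-Atp6 and mt-Nd3 did not pass in any comparison, and their values scattered within groups. mt-Co3, a core subunit of complex IV, was at 557, 163, 465 and 110 CPM in mAM_WT, 642, 133 and 34.5 in mAM_KO and 572, 687 and 211 in Imm_KO. With Gm28437 added the same libraries were at 2622, 2200, 2297 and 1671 CPM, 2967, 2652 and 2915, and 2927, 2644 and 3185. mAM_KO replicate 4 was at 637 CPM alone and 1922 CPM with Gm28437, the latter within the range of the controls. Alone and summed, mean and SD were 324 ± 221 and 2197 ± 395 CPM in mAM_WT, 270 ± 326 and 2845 ± 169 in mAM_KO and 490 ± 248 and 2919 ± 271 in Imm_KO. The SD of the sum was thus below that of mt-Co3 alone in mAM_KO only, while it was a smaller part of the mean in every group. The part of the division of reads in this scatter was not tested. The sums of these 3 genes with their copies rose in Imm_KO against mAM_WT: mt-Co3 by 0.42 ± 0.13 (limma adjusted p = 0.0136), mt-Atp6, the proton channel subunit, by 0.69 ± 0.16 (limma adjusted p = 0.00259) and mt-Nd3 by 0.78 ± 0.19 (limma adjusted p = 0.00368). With copies summed, 12 of 13 mt- genes rose, all but mt-Nd2, and 49 members passed in all. This alternative was chosen after seeing the data. Against mAM_WT, mAM_KO had mt-Atp6 at 2648, 4240 and 3871 CPM counted alone against 2479, 1174, 2239 and 446, and 5004, 4736 and 5409 against 4506, 3457, 3967 and 2552 with Gm10925, and neither difference passed (limma adjusted p = 0.0828 and 0.0759). For mt-Atp6, mAM_KO replicate 4 was at 983 CPM alone and 2830 CPM with Gm10925, both within the range of the controls.

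**Figure D4:**
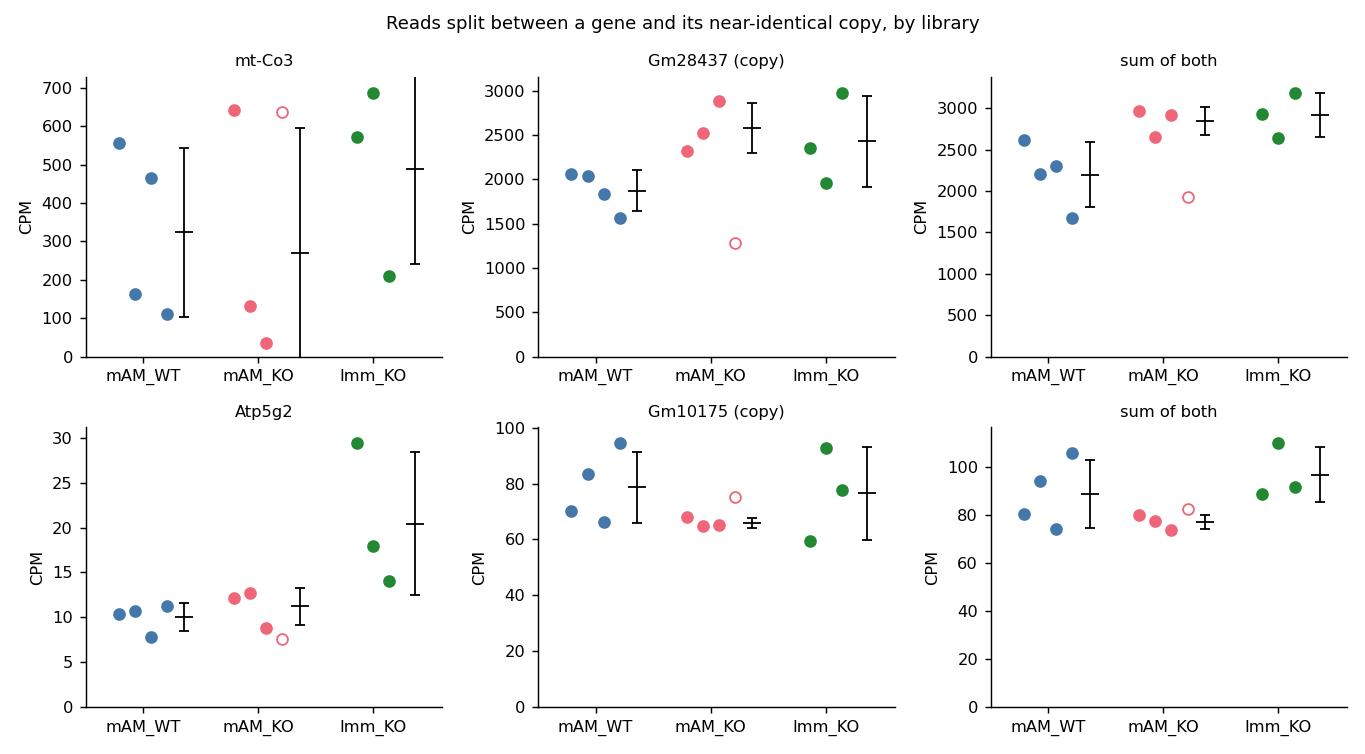
CPM of mt-Co3 with its copy Gm28437 (top) and of Atp5g2 with its copy Gm10175 (bottom), each alone and summed, by library (points), with group mean and SD; bars end at 0 and the open point is mAM_KO replicate 4. mt-Co3 alone spans 34.5 to 642 CPM within mAM_KO, while the sum spans 2652 to 2967 in the same 3 libraries.

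The comparison of Imm_KO with mAM_KO holds the genotype constant and shares libraries with both comparisons above. In it 30 of 94 members passed (31.9%, against 37.9% of all genes, 17.7% higher and 20.2% lower): 19 nuclear members fell, 5 nuclear members rose and 6 mt- members rose. The medians were -0.02 for the nuclear and 0.43 for the mt- genes. With mAM_KO replicate 4, 30 passed as well (21 nuclear lower, 2 higher and 7 mt- higher), with medians of -0.15 and 0.63, where 4922 of 12932 genes passed. Leaving out 1 library gave 22 to 36, with 15 of the 24 nuclear and 3 of the 6 mt- calls holding in every such fit. The lowest count came without Imm_KO replicate 2, where 4010 of 12607 genes passed. The highest came without mAM_WT replicate 4, where 5278 of 12798 genes passed. The largest falls were again Cox5a (-0.80 ± 0.08, limma adjusted p = 6.64e-06) and Atp5g3 (-0.60 ± 0.09, limma adjusted p = 0.00013), and Ndufa9 and Ndufs4 both gave -0.49. Cox7b, a small complex IV subunit, was at 70.5, 63.6 and 61.2 CPM in mAM_KO and 49.9, 46.3 and 51.4 in Imm_KO, a fall of 0.40 ± 0.08 (limma adjusted p = 0.00132). Among the rises, mt-Atp8 had 1.17 ± 0.16 (limma adjusted p = 0.000102), mt-Nd4l 0.71 and mt-Cytb 0.63 ± 0.13 (limma adjusted p = 0.0016), Cox7a2l had 0.55 ± 0.08 (limma adjusted p = 0.000108), and Ndufa2, Cox8a and Atp5l had 0.60, 0.43 and 0.49. In Ndufa2 and Cox8a the 3 mAM_KO libraries lay below all of mAM_WT and Imm_KO. Ndufa2 was at 26.8, 32.3, 25.8 and 35.7 CPM in mAM_WT, 22.7, 23.8 and 17.6 in mAM_KO and 31.7, 30.3 and 34.5 in Imm_KO, and mAM_KO replicate 4 at 41.1 was above them all. Cox8a and Atp5l in that library, at 111 and 91.8 CPM, also lay above every other mAM_KO value. Atp5g2 was counted as higher here too, by 0.82 ± 0.25, and by 0.32 ± 0.12 when summed with Gm10175 (limma adjusted p = 0.0192 and 0.0535).

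Across the 3 comparisons, 39 of 81 nuclear and 4 of 13 mt- members passed in none. Atp5g3 and Uqcrc1 were the members that fell in every comparison, 17 more nuclear members fell in Imm_KO against both mature groups, and 15 fell against mAM_WT alone. These patterns, and the order of group means below, were not counted over all genes. Of all genes 4.84% passed in mAM_KO against mAM_WT, and 48.1% and 37.9% in Imm_KO against mAM_WT and mAM_KO. With mAM_KO replicate 4 in the fit, neither Atp5g3 nor Uqcrc1 passed in mAM_KO against mAM_WT. By group mean, 59 of 81 nuclear members were highest in mAM_WT, 41 lowest in Imm_KO and 34 lowest in mAM_KO, and 10 of 13 mt- members were highest in Imm_KO. These means leave out mAM_KO replicate 4, which was above every other mAM_KO library in 72 of 81 nuclear members. The order with that library included was not counted. The differences of mAM_KO and of Imm_KO from the controls share the mAM_WT libraries, so they are not independent of each other.

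Transcript length went with these differences. Split at the median length of 718.5 bases, 24 of 41 longer nuclear members fell (58.5%) and 1 rose in Imm_KO against mAM_WT. Of 40 shorter ones 10 fell (25.0%) and 3 rose, where 25.3% of all genes fell. Over the 81 nuclear members, Spearman's rho between length and log2 fold change was -0.33 in this comparison, -0.43 in Imm_KO against mAM_KO and 0.28 in mAM_KO against mAM_WT, where over 12876 genes it was 0.08, 0.01 and 0.14. Length also went with differences inside groups: rho was -0.53 for mAM_KO replicate 4 against the other mAM_KO libraries and -0.58 for mAM_WT replicate 4 against the other controls, with shorter nuclear members higher in both. Over 12876 genes it was -0.22 and -0.16. These correlations are over genes that share the same libraries and are a description only. The part of such differences between libraries in the group comparisons was not tested beyond the fits without the libraries numbered 4.

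**Figure D5:**
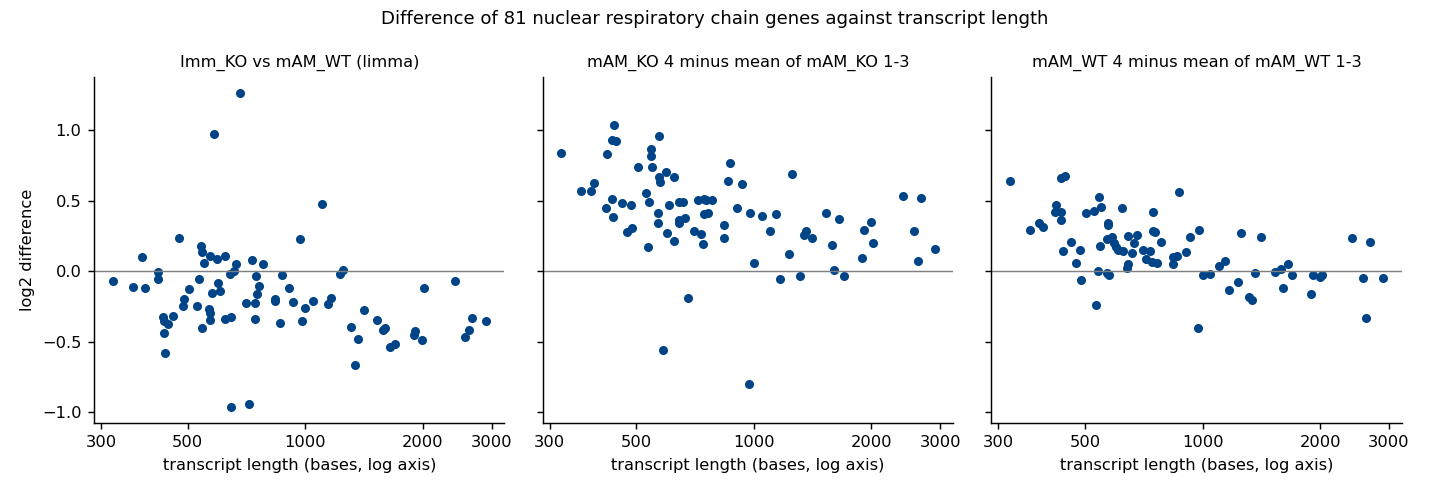
Log2 difference of each of the 81 nuclear members against its transcript length in bases (log axis), for Imm_KO against mAM_WT, and for replicate 4 of mAM_KO and of mAM_WT against the other libraries of its group. Points of short transcripts lie higher in all 3 panels, with Spearman's rho of -0.33, -0.53 and -0.58.

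Genes that assemble, serve or regulate the chain were read from 10 lists with 159 different genes (Tfb2m is on 2 lists), of which 153 were tested. In Imm_KO against mAM_WT, 60 fell (39.2%, against 25.3% of all genes) and 11 rose (7.19%, against 22.8%). In mAM_KO against mAM_WT 3 fell (1.96%, against 2.59%) and 1 rose (0.654%, against 2.25%). Of 11 further subunits and electron carriers, 9 fell (81.8%) and 1 rose (9.09%) in Imm_KO, with a median of -0.58. Etfa and Etfb, which pass electrons from fatty acid oxidation to coenzyme Q, fell by 1.14 ± 0.08 and 1.53 ± 0.11 (limma adjusted p = 1.16e-07 and 1.13e-07), and the mitochondrial carrier Ucp3 fell by 2.78 ± 0.11 (limma adjusted p = 1.05e-09), from 110 ± 9.26 to 16 ± 1.03 CPM. Sqor, which oxidizes sulphide and reduces coenzyme Q, rose by 0.35. Ndufab1, the acyl carrier protein of complex I, had 0.18 ± 0.14 and did not pass. Of 13 coenzyme Q synthesis genes 6 fell (46.2%) and 7 did not pass, with the largest fall in Coq3 (-1.15 ± 0.16, limma adjusted p = 7.67e-05).

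The shares below stand beside the 25.3% of all genes that fell and the 22.8% that rose in Imm_KO against mAM_WT. Among assembly factors, in that comparison, of 18 for complex I, 7 fell (38.9%), Ndufaf5 the most at -0.82, and 2 rose (11.1%), Dmac2 the most at 0.50. Of 4 for complex II only Sdhaf2 passed, at -0.43, and the 6 for complex III, which did not pass, ran from -0.33 (Bcs1l) to 0.86 (Lyrm7). Of 23 for complex IV, 3 fell, Coa3 the most at -0.53, and Surf1 rose by 0.28. Of 4 for complex V, 2 fell (50.0%), Tmem70 the most at -0.67. Against mAM_KO, Ndufaf8, Sco2 and Fmc1 rose by 0.84, 1.55 and 0.93, and Ndufaf8 was the 1 assembly factor that fell in mAM_KO against mAM_WT (-0.79 ± 0.19, limma adjusted p = 0.0355). In mAM_KO replicate 4, Ndufaf8 was at 9.32 CPM, above all controls and all Imm_KO libraries, Fmc1 at 5.84, above both as well, and Sco2 at 5.48, within Imm_KO, and none of these calls passed with that library in the fit. Without mAM_KO replicate 2 the value of Sco2 was 0.91. Of 31 genes of mitochondrial DNA transcription, replication and RNA handling, 14 fell (45.2%) and 3 rose (9.68%) in Imm_KO against mAM_WT. Tfam, which packages mitochondrial DNA and starts its transcription, fell by 0.33 ± 0.12 (limma adjusted p = 0.0337) from 28.3 ± 2.32 to 22.7 ± 3.03 CPM. Polg2, the accessory subunit of the mitochondrial DNA polymerase, rose by 0.89 ± 0.15 (limma adjusted p = 0.000295), and Mterf2, at 1.02 ± 0.24 and 0.305 ± 0.35 CPM, fell. Of 27 membrane and import genes, 15 fell (55.6%), Timm23 the most at -0.82 ± 0.09 (limma adjusted p = 8.18e-06). Only Slc25a3 (3.70%), the phosphate carrier that supplies ATP synthase, rose, by 0.21 ± 0.05 (limma adjusted p = 0.00556). Tomm40, the import pore, fell by 0.46 in mAM_KO and by 0.43 in Imm_KO, with mAM_KO replicate 4 at 45.9 CPM, within the 41.5 to 51.9 of the controls, and the first call did not pass with that library in the fit.

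Among 17 tested regulators of mitochondrial biogenesis, 4 fell (23.5%) and 3 rose (17.6%) in Imm_KO against mAM_WT, shares near those of all genes (25.3% and 22.8%). Esrra, the oestrogen-related receptor that drives nuclear respiratory chain genes, was at 59.1, 68.6, 56.7 and 80.6 CPM in mAM_WT, 53.7, 49.6 and 48.2 in mAM_KO and 41.0, 45.4 and 40.6 in Imm_KO. It fell by 0.63 ± 0.11 in Imm_KO (limma adjusted p = 0.000463) and its -0.38 ± 0.11 in mAM_KO did not pass (limma adjusted p = 0.0693), with mAM_KO replicate 4 at 67.7 CPM. Its relative Esrrg, a low transcript, was at 0.753, 1.15, 2.01 and 0.663 CPM in mAM_WT, 4.36, 1.93 and 8.50 in mAM_KO and 3.31, 2.85 and 4.65 in Imm_KO, and passed against mAM_WT in both (log2 2.0 and 1.77, limma adjusted p = 0.0396 and 0.00975). mAM_KO replicate 4, at 1.81 CPM, lay within the range of the controls, and with it the mAM_KO call did not pass. Nrip1, a corepressor of oxidative genes, fell by 1.22 ± 0.06 (limma adjusted p = 6.37e-09). Nrf1 and Gabpa, which bind many respiratory chain promoters, were at 28.1 ± 2.52 and 68.0 ± 10.2 CPM in mAM_WT and 27.5 ± 3.29 and 72.1 ± 5.46 in Imm_KO and did not pass. Ppargc1b, a coactivator of these factors, had 0.36 ± 0.17 and did not pass (limma adjusted p = 0.0943), and Ppargc1a was not listed.

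The promoters of Atp5g3 and Uqcrc1, which fell in all comparisons without mAM_KO replicate 4, are shown. They are given with the letters that such factors are known to bind. Sequences of 300 bases around a transcription start, most of it upstream (RefSeq, GRCm38.p6), were found for 67 of 81 nuclear members and were searched on both strands for set letters. The oestrogen-related receptor half-site TCAAGGTCA was in 2 of 67 (2.99%, against 0.326% of 9500 listed genes), those of Atp5g3 and Sdhd. The NRF1 site core CGCATGCG was in 9 (13.4% against 4.46%), the ETS site CCGGAAG bound by Gabpa in 17 (25.4% against 21.4%), TATAAA in 6 (8.96% against 8.67%) and a direct repeat of AGGTCA spaced by 1 base, the RXR heterodimer site known as DR1, in 0 (against 0.0421%). Atp5g3 (chr2:73911277-73911576, minus strand) has the half-site in the reverse orientation, in capitals.
Atp5g3: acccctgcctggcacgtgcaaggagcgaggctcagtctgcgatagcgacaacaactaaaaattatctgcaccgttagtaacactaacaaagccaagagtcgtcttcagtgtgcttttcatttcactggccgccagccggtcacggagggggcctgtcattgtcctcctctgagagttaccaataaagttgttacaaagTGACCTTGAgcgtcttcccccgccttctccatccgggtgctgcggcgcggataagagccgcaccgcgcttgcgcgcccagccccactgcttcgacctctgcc
Uqcrc1 (chr9:108936398-108936697, plus strand) has an NRF1 core near its start, in capitals.
Uqcrc1: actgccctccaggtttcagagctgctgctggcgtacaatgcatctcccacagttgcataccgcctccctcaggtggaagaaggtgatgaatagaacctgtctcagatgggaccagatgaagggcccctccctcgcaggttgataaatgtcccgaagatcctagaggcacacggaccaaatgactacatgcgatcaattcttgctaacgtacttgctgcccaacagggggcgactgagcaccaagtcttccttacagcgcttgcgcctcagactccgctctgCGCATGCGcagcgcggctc
Of these, Atp5g3 fell by 0.94 in Imm_KO against mAM_WT and Sdhd, with the same half-site, had -0.02. Such matches describe the letters in these windows and not bound sites, and a window without them says nothing about a factor.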

How the data were processed

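Bulk RNA-seq of sorted mouse alveolar macrophages was read from 1 table of 12932 genes in 11 libraries. Per the labels and methods, the authors made directional libraries (NEBNext Ultra II Directional), sequenced 60-base single-end reads, removed adapters using Cutadapt, and aligned reads to transcripts of GRCm38 for expected counts from RSEM 1.3.1. How strand was set in counting is not given in the sources used here. Values as deposited are CPM after TMM normalization, for genes with at least 1 CPM in at least 3 samples. All values came out within 0.01 of whole reads once the 0.5 read added per value was removed, giving 16659960 to 37873532 reads per library.

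Log2 CPM were fitted with limma 3.58.1 (R 4.3.3, trended variance, all 3 groups in 1 model) on 10 libraries, leaving out mAM_KO replicate 4, as the study's own table of this comparison does. Genes with at least 1 CPM in 3 of these libraries, 12889, were tested two-sided, and p-values were adjusted over all of them by the Benjamini-Hochberg method, with a threshold of 0.05. The fold changes are on the log2 scale of the deposited values. On the recovered reads, edgeR 4.0.16 called 566, 6094 and 4804 genes in mAM_KO against mAM_WT, Imm_KO against mAM_WT and Imm_KO against mAM_KO. The fits were also run on simulated counts with known changes, the same dispersion for all genes and no differences between libraries beyond their size. The real libraries differ from that setting, so no conclusion is drawn from it here. Alternatives were other pseudocounts, filters, scalings and tools (DESeq2 1.42.0, limma-voom), the 11 libraries, each library left out and a replicate block, and, chosen after seeing the data, summed copies and leaving out the libraries numbered 4.

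The members and lists were chosen with earlier results of these data known. Genes were named by rule: all mt- and complex II members, subunits with several forms, the 5 largest called rises and falls per comparison, set regulators and carriers, and the called extremes of each list. Ndufs1, Ndufs7, Ndufs8, Ndufv1, Uqcrc2, Uqcrfs1, Uqcrh, Atp5a1, Atp5b, Cox7b, Etfa, Etfb, Bcs1l and Lyrm7, where outside that rule, and the grouping of subunits by role were chosen after their values were seen. Positions are of GRCm38 (GENCODE vM21, which held 12919 of the table's genes). Some values are not reported here.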

Additional observations from a re-analysis of the deposited data

Results flagged for a closer look

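In 84 groups of 4 libraries, over the named members, a library farther from the other 3 than Dixon's 95% critical ratio was found 7 times. Chance gives about 1 in 20 for a single test. The 84 tests share libraries, and Atp5d and Uqcrc1 were named for calls in a fit without mAM_KO replicate 4, so this rate need not hold here. In mAM_KO, replicate 4 was the highest library for 4 nuclear members. Sdhb was at 93.0 CPM against 69.3 to 71.1 in the other 3 libraries, and Cox8a at 111 CPM against 64.4 to 69.0. Atp5d was at 110 CPM against 68.8 to 74.9, and Uqcrc1 at 169 CPM against 129 to 134. The same library was the lowest for mt-Nd3, at 117 CPM against 304 to 340. In mAM_WT, replicate 4 was the lowest for mt-Co2, at 2127 CPM against 2515 to 2520. Cox6a2 was at 1.59 CPM in mAM_KO replicate 1 against 0.574 to 0.710 in the others, a level near the filter.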

How the results depend on the processing

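In mAM_KO against mAM_WT, where 3 members passed, the count was 0 with all 11 libraries, with only the 2 groups compared, without a variance trend, without the libraries numbered 4, with copies summed in all 11 libraries, and with the replicate block. It was 6 without a TMM factor, with library sizes that leave out mt- reads and after quantile normalization, 8 with a filter at 5 CPM and 18 in DESeq2. Leaving out 1 library gave 0 to 16, and with copies summed 0 to 19 (9 without mAM_KO replicate 2, 19 without mAM_WT replicate 1). For Imm_KO against mAM_WT (47) leaving out 1 library gave 31 to 53, and for Imm_KO against mAM_KO (30) 22 to 36, and with copies summed 34 to 55 and 21 to 36. The cause of these changes was not tested, except that fits with fewer libraries have less power by construction. Over all genes the 624 calls of mAM_KO against mAM_WT became 337 with 11 libraries, 122 without a trend, 199 with only the 2 groups, 226 without the libraries numbered 4, 174 with the block, 1368 in DESeq2 and 162 to 861 with 1 library left out, while no other comparison moved by over 1.5 times. The 77 results of named genes that passed in the fit on 10 libraries gave 2918 values under the alternatives. Of these, 2659 kept their direction and side of the threshold, 259 lost the call and 0 reversed. Calls gained by results that had not passed are outside this count, such as the 6 mt- genes called higher by DESeq2 in mAM_KO against mAM_WT. Pairing by replicate number was looked at without mAM_KO replicate 4. Same-numbered libraries of different groups had correlations of -0.13 to 0.06 over all genes, and other pairs -0.15 to 0.21. So few libraries cannot decide whether the numbers mark pairs, and mAM_KO replicate 4 was not compared with mAM_WT replicate 4 in this way. With the replicate block 46 and 24 members passed in Imm_KO against mAM_WT and against mAM_KO. No other scaling moved the median of all genes by over 0.1 on the log2 scale. The low levels of Cox6a2, Cox7a1, Esrrg and Mterf2 limit what can be said of them.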
